A study of Mus musculus with 2 samples.

Results

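The genes described here are 42 genes of fatty acid oxidation, acyl-CoA hydrolysis, ketone body metabolism and other targets of the nuclear receptor PPARA, taken as a list of gene symbols from known function, with no cutoff on their values, though earlier results of these libraries were known when the list was made. All 42 were among the 23284 genes listed for both libraries, and 40 of them reached 1 FPKM in at least 1 library, as did 11504 genes in all. The 2 that did not are Acot3 and Fgf21. The study compared epithelial cells of the mouse small intestine by RNA sequencing, with 1 library of the genotype miR-215+/+ (wild-type) and 1 of the genotype miR-215-/- (knockout). The strain, age, sex and diet of the mice, the number of animals behind each library, the intestinal segment and how the mutant allele was made are not given in the labels.

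With 1 library per genotype there was no replicate check, so no difference below carries a test, and each compares 2 libraries and not 2 genotypes. Levels are given in FPKM, fragments per kilobase of transcript scaled to the library, which allows levels to be set side by side between genes. The log2 ratio is log2(knockout + 1) minus log2(wild-type + 1), so that values below 0 are lower in the knockout library, and low levels make the difference on this scale smaller than it is. Where a pair of FPKM values is given, the wild-type library comes first. Gene coordinates are those of GENCODE M21 (GRCm38, which is mm10). Folds are ratios of the deposited FPKM without the added 1. Each fold is followed in parentheses by its exact 95% Clopper-Pearson interval, made from estimated fragment numbers, which covers counting error only. In bulk RNA, fewer cells of a type and less RNA per cell cannot be told apart.

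Fatty acids are activated to acyl-CoA, carried into mitochondria as carnitine esters and shortened there in repeated rounds of dehydrogenation, hydration, dehydrogenation and thiolytic cleavage, while very long and branched chains are shortened first in peroxisomes. PPARA is a nuclear receptor that is activated by fatty acids and binds DNA as a dimer with RXR at a direct repeat of the hexamer AGGTCA spaced by 1 base. In the small intestine, PPARA targets are expressed mainly in absorptive enterocytes, which take up dietary fat, oxidise part of it and export the rest in chylomicrons.

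The microRNA that was deleted and its close relative miR-192 are shown because both carry the same seed, bases 2 to 8, given in capitals. The mature sequences are from RefSeq on GRCm38.p6, and lie at chr1:185313610-185313630 and chr19:6264857-6264877, both on the plus strand.
mmu-miR-215-5p: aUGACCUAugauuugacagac
mmu-miR-192-5p: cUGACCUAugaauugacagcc
The heptamer complementary to this seed, TAGGTCA, was searched in the longest annotated 3' UTR of each gene, on the transcript strand. Cpt1a was the only one of the 40 measured members to hold it, which is 2.5% of them, against 688 of 10078 kept genes with an annotated 3' UTR, or 6.83%. The members' 3' UTRs had a median length of 771.5 nt, shorter than the 1104 nt of all these genes. The Cpt1a site lies at positions 1060 to 1066 of a 3' UTR of 1892 nt and is shown with its neighbouring bases, the heptamer in capitals.
Cpt1a site: cgatagaaggcTAGGTCAttttggtgaca
A match describes the letters only. Over all kept genes the median log2 ratio was -0.00047 with the heptamer and -0.05 without it, and Cpt1a itself was at -0.36. Genes with and without the heptamer were not matched for length. Over 10423 kept genes, Spearman's rho between transcript length and the log2 ratio was 0.18.

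The entry of the deleted gene, Mir215, annotated at 112 nt, had 137 FPKM in the wild-type library, and the knockout library lists it at 0. The wild-type value is near the smallest that a transcript so short could take. Among 97 genes of similar length the lowest value above 0 was 122 FPKM in the wild-type and 78.8 FPKM in the knockout library. Libraries of polyadenylated RNA do not measure the mature microRNA, so the genotype labels are not checked by these values.

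Most members were lower in the knockout library. Of the 40 measured, 32 had a log2 ratio below 0, or 80%, where 56% of all kept genes did. The median log2 ratio of the members was -0.33, with quartiles of -0.53 and -0.07, and that of all kept genes was -0.05, with quartiles of -0.27 and 0.18. By a rule of 1.5-fold or more on that scale, 7 members were lower (17.5%, against 7.26% of all kept genes) and 1 was higher (2.5%, against 4.83%). The 7 are Acaa1b, Acot1, Crot, Eci1, Acsl1, Acaa2 and Acox2. At 2-fold or more on that scale, 1 member was higher, Angptl4 (2.5%, against 1.34%), and none of the 40 was lower (against 2.04%). Without the added 1, Acot1 and Acaa1b were more than 2-fold lower, with ratios of 0.430 and 0.499.

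The deposited values put the summed FPKM of the knockout library below that of the wild-type library, and the scaling behind them is not known. With the knockout values multiplied by 1.10, which gives equal sums, the median log2 ratio of all genes moved from -0.05 to 0.07 and that of the members from -0.33 to -0.20. On that scale 72.5% of the members and 40.7% of all genes had log2 ratios below 0. The share of all genes at least 1.5-fold higher was then 7.80% and the share at least 1.5-fold lower 4.90%, where 12.5% of the members (5 genes) were lower. The members' median was below that of all genes on both scales, and 31 of the 40 lay below the median of all genes on each. Multiplying every knockout value by 1 factor moves all genes nearly alike, so this comparison could hardly have changed.

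The differences were small in size and spread over many members. Counting intervals lay below 1 for 29 members, above 1 for 7 and included 1 for 4, namely Cpt2, Acadvl, Acot2 and Acot8. Of 10423 kept genes with an annotated length, 31.4% had an interval below 1 and 19.4% above 1. Abundant genes have narrow intervals, and of the 3974 such genes that reached 20 FPKM in either library 53.1% lay below 1 and 19.2% above it, against 74.3% and 17.1% of the 35 members at that level. With equal sums of FPKM the intervals of 21 members lay below 1 and those of 9 above it, Cpt2 and Acadvl among the 9. The 10 that then included 1 are Acads, Hadha, Hadhb, Etfdh, Eci2, Acot2, Acot4, Acot8, Bdh1 and Ucp2, so that their folds below are within counting error on that scale. Ehhadh stood just outside the 1.5-fold rule at a log2 ratio of -0.58, and Acox2 just inside it at -0.59. The summed FPKM of the 40 was 5202 in the wild-type and 4521 in the knockout library, which is 0.693% and 0.661% of each library's total.

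The members are abundant genes, and abundant genes were more often lower in this pair of libraries. Median FPKM of the members was 78.9 in wild-type and 66.3 in the knockout library, against 11.2 and 10.9 for all kept genes. Across the 11504 kept genes of these 2 libraries, Spearman's rho between the wild-type level and the log2 ratio was -0.34, and across 10423 genes it was 0.18 between transcript length and the log2 ratio. The wild-type level enters both quantities of the first relation. Of the 4330 genes that reached 20 FPKM in either library, 70.0% had a log2 ratio below 0, with a median of -0.14, and 9.93% were at least 1.5-fold lower. For the 35 members above that level the share below 0 was 80%, the median -0.31, and 5 were at least 1.5-fold lower (14.3%). The gap between the members' median and that of all genes thus narrowed from -0.29 to -0.16 at this level. Of the 35 members, 23 lay below the median of all genes that reached it. Within the 40 members the level was not related to the ratio in the same way (rho = -0.07), while rho with transcript length was 0.30.

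**Figure D1:**
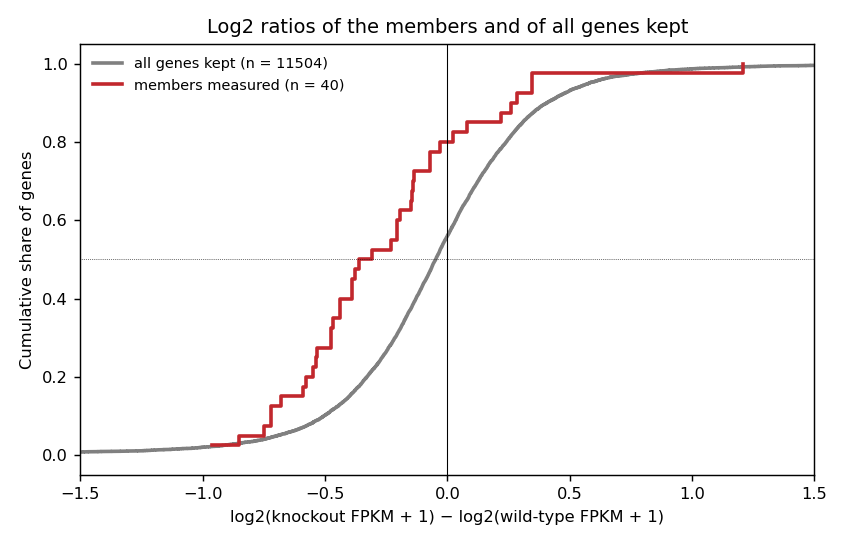
Cumulative share of genes (vertical axis) by log2 ratio of knockout to wild-type, with 1 added to each FPKM (horizontal axis), for the 40 measured members and the 11504 kept genes. The members' curve lies to the left over most of its length, with a median of -0.33 against -0.05, and Angptl4 forms its right end at 1.21.

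The 7 measured genes of activation and carnitine transport divided, 3 above 0 and 4 below, with a median log2 ratio of -0.23, or -0.10 with equal sums. Acsl5, a long-chain acyl-CoA synthetase abundant in enterocytes, was the most abundant member in the knockout library and the second in the wild-type library, at 799.7 FPKM in the wild-type and 1016 FPKM in the knockout library, 1.27-fold higher (1.24 to 1.28). Acsl1 (chr8:46471037-46536051, plus strand), a synthetase of the same family, went the other way, from 43.1 FPKM in the wild-type to 25.7 FPKM in the knockout library, 1.67-fold lower (1.54 to 1.83). Acsl3, a synthetase found on the endoplasmic reticulum and lipid droplets, stood at 11.8 and 14.6 FPKM, 1.24-fold higher (1.06 to 1.43). The 3 synthetases of long-chain fatty acids therefore did not share a direction.

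Cpt1a (chr19:3322334-3385733, plus strand), the carnitine palmitoyltransferase of the outer mitochondrial membrane and the controlled step of entry, had 44.9 FPKM in the wild-type and 34.7 FPKM in the knockout library, 1.29-fold lower (1.21 to 1.40). Cpt2, which reverses the transfer on the inner side, had 82.6 and 84.0 FPKM, a ratio of 1.02 (0.947 to 1.08) that includes no difference. Its log2 ratio was 0.16 with equal sums. Crot (chr5:8966033-8997324, minus strand), which makes carnitine esters of medium-chain products in peroxisomes, had 185 and 109 FPKM, 1.69-fold lower (1.62 to 1.78). Crat, the carnitine acetyltransferase, lay between these at 52.5 and 44.7 FPKM, 1.18-fold lower (1.10 to 1.27). The peroxisomal enzyme thus showed the widest gap of the 4 carnitine acyltransferases.

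All 5 acyl-CoA dehydrogenases, which open each round of oxidation and differ in the chain length they take, had log2 ratios below 0. Their median was -0.44, or -0.31 with equal sums of FPKM, where Acadvl moved above 0. Acadvl, for very long chains, stood at 156 FPKM in the wild-type and 153 FPKM in the knockout library, a ratio of 0.979 (0.926 to 1.02). Acadl, for long chains, stood at 138 and 101 FPKM, 1.36-fold lower (1.28 to 1.45). Acadm, for medium chains, stood at 145 and 99.6 FPKM, 1.46-fold lower (1.38 to 1.55). The enzymes for long and medium chains were lower by a margin beyond counting error, and the one for very long chains was not. Acads, for short chains, stood at 75.2 and 68.0 FPKM, 1.11-fold lower (1.03 to 1.20) but at a log2 ratio of -0.01 with equal sums, and Acad11, a less studied dehydrogenase of the family, at 92.8 and 66.4 FPKM, 1.40-fold lower (1.33 to 1.49).

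The later steps of mitochondrial oxidation were below 0 in 6 of 6 genes, or in 5 of 6 with equal sums because Hadha moved above 0. The median log2 ratio was -0.46, or -0.33 with equal sums. Their summed level went from 1629 FPKM in the wild-type to 1169 FPKM in the knockout library. Hadh, the 3-hydroxyacyl-CoA dehydrogenase of shorter chains, was the most abundant of the 42 members in the wild-type library, at 909 FPKM in the wild-type and 621 FPKM in the knockout library, 1.46-fold lower (1.43 to 1.51). Acaa2, the mitochondrial thiolase that cleaves off acetyl-CoA, had 237 and 147 FPKM, 1.61-fold lower (1.53 to 1.71). Hadh alone accounted for most of the difference in the sum. Eci1 and Decr1 prepare unsaturated fatty acids for the cycle, as an enoyl-CoA isomerase and a dienoyl-CoA reductase. Eci1 had 110 and 66.2 FPKM, 1.66-fold lower (1.51 to 1.84), and Decr1 had 61.9 and 47.3 FPKM, 1.31-fold lower (1.22 to 1.41).

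Hadha and Hadhb encode the alpha and beta subunits of the mitochondrial trifunctional protein, which carries out the last 3 steps for long chains. Hadha had 112 FPKM in the wild-type and 106 FPKM in the knockout library, 1.05-fold lower (1.01 to 1.11). Hadhb had 199.7 and 181 FPKM, 1.10-fold lower (1.06 to 1.16). With equal sums Hadha lay above 0 and Hadhb at -0.01. Both were closer to no difference than the other 4 genes of these steps. The 2 genes are transcribed away from each other, and their annotated 5' ends are 85 bases apart on chromosome 5. The promoter window of Hadhb is shown because it spans the region between them (chr5:30155003-30155302, plus strand, 250 bases before to 50 after the start, RefSeq on GRCm38.p6). It holds no AGGTCA on either strand, which says only that these letters are not in this window.
Hadhb promoter: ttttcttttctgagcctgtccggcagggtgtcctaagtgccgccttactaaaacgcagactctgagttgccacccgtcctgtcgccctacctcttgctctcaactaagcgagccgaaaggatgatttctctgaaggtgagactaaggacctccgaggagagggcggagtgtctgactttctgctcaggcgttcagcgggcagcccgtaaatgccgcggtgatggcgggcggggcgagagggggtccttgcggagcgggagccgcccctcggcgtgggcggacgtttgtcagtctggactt

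Electrons from the acyl-CoA dehydrogenases pass through the electron transfer flavoprotein, made of the Etfa and Etfb products, to its oxidoreductase Etfdh. Etfa had 154 FPKM in the wild-type and 124 FPKM in the knockout library, 1.24-fold lower (1.16 to 1.33). Etfb had 208 and 159 FPKM, 1.31-fold lower (1.22 to 1.42). Etfdh had 112 and 102 FPKM, 1.10-fold lower (1.04 to 1.17). All 3 lay below 0 with a median log2 ratio of -0.31, or -0.17 with equal sums, where Etfdh was at -0.01, and the 2 subunits of the flavoprotein differed by more than the oxidoreductase.

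**Figure D2:**
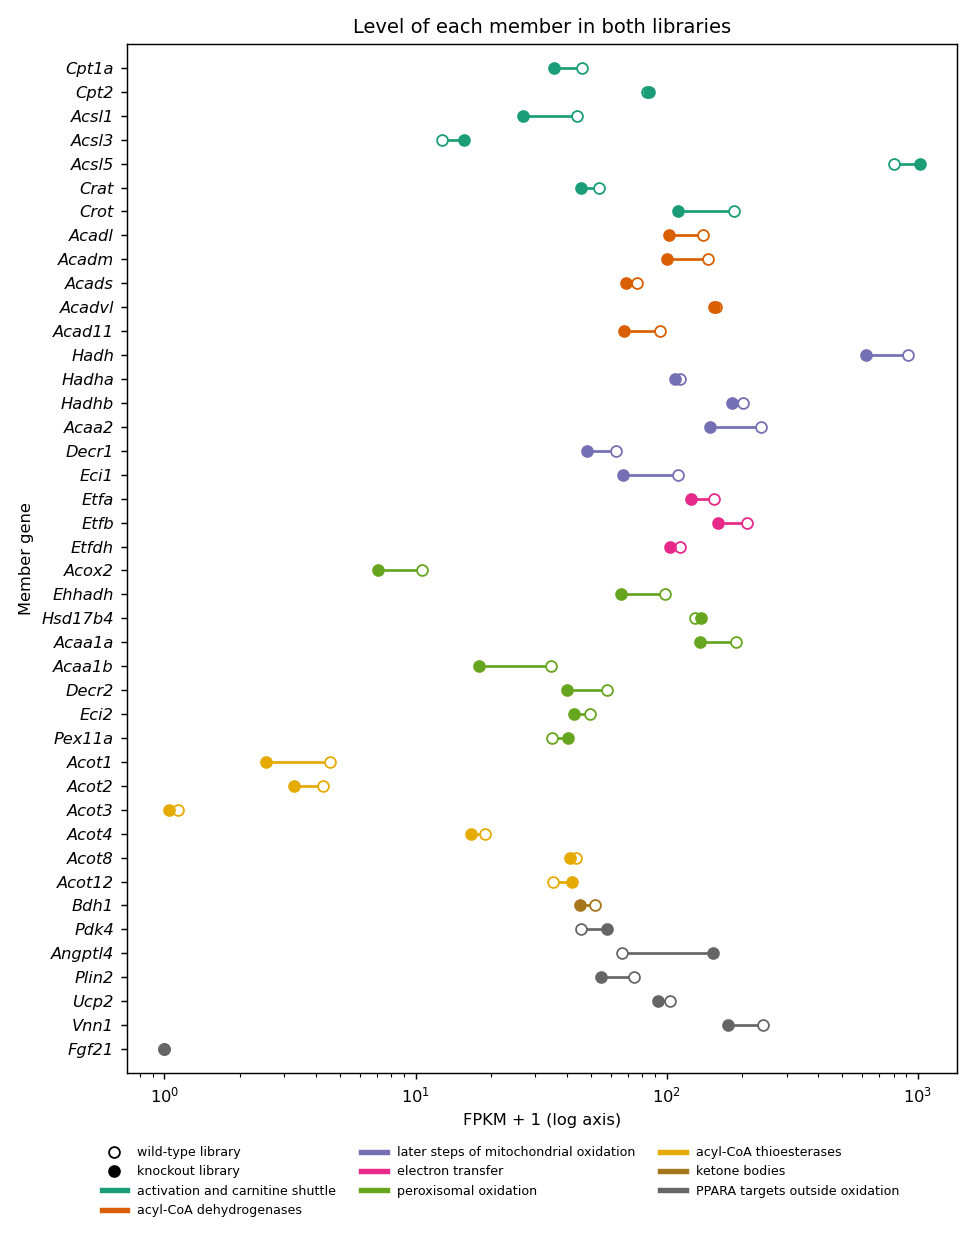
FPKM + 1 of each member (log axis) in the wild-type library (open points) and the knockout library (filled points), coloured by role. Levels run from Fgf21, at 0 in both libraries, to Hadh at 909 and 621 FPKM and Acsl5 at 799.7 and 1016 FPKM, and most filled points lie to the left of their open partner.

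The 8 peroxisomal members had a median log2 ratio of -0.50, or -0.37 with equal sums, with 6 below 0 and 2 above. Acaa1a and Acaa1b are near-identical peroxisomal thiolases on chromosome 9, 182582 bases apart. Acaa1a (chr9:119339676-119350299, plus strand) had 188 FPKM in the wild-type and 135 FPKM in the knockout library, 1.39-fold lower (1.33 to 1.48). Acaa1b (chr9:119148023-119157093, minus strand) had 33.8 and 16.8 FPKM, 2.01-fold lower (1.74 to 2.36), and its log2 ratio of -0.96 was the lowest of the measured members. By the FPKM ratio without the added 1, Acot1 was lower, at 0.430 against 0.499. Both copies were lower in the knockout library. Their coding sequences are identical at 96.5% of aligned bases in GENCODE M21, while their RefSeq promoter windows match at 44.7%. Windows of Acot1 and Acot4, whose coding sequences match at 74.1%, match at 46.2% in the same kind of alignment. The Acaa1a window (chr9:119341044-119341343) lies inside the gene coordinates above, so the 2 windows may not be at matching positions. The labels do not say how fragments that fit both copies were assigned, so the split between them is uncertain.

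The 2 bifunctional enzymes of peroxisomes, which hydrate and dehydrogenate, differed in direction. Ehhadh, the L-bifunctional enzyme and a classical PPARA target, had 97.4 FPKM in the wild-type and 64.9 FPKM in the knockout library, 1.5-fold lower (1.42 to 1.60). Hsd17b4, the D-bifunctional enzyme needed for branched chains and bile acid intermediates, had 128 and 136 FPKM, 1.058-fold higher (1.002 to 1.106), a log2 ratio of 0.08. Acox2, the oxidase of branched chains and bile acid intermediates, was the least abundant of these 8 genes, at 9.66 and 6.08 FPKM, 1.59-fold lower (1.29 to 1.97). Of these 2 members that act on branched chains, Acox2 was thus lower and Hsd17b4 slightly higher. Hacl1 and Amacr, outside the 42 and given below, were lower. Decr2 and Eci2, the peroxisomal counterparts of Decr1 and Eci1, were both lower, Decr2 at 56.8 and 39.0 FPKM, 1.46-fold (1.33 to 1.60), and Eci2 at 48.4 and 41.9 FPKM, 1.16-fold (1.03 to 1.31). Pex11a, a membrane protein of peroxisome proliferation, was higher, at 33.8 and 39.5 FPKM, 1.17-fold (1.05 to 1.29).

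Acyl-CoA thioesterases release free fatty acids and CoA. Acot1 to Acot4 lie in a cluster of 72542 bases on chromosome 12 (chr12:83987861-84060402) and were among the less abundant members. Acot1, the cytosolic enzyme, had 3.57 FPKM in the wild-type and 1.54 FPKM in the knockout library, 2.32-fold lower (1.52 to 3.66) from about 72 and 32 fragments. Its mitochondrial counterpart Acot2 had 3.30 and 2.28 FPKM, 1.44-fold lower with an interval that includes no difference (0.974 to 2.16). The coding sequences of Acot1 and Acot2 are identical at 95.6% of 1236 aligned bases, so the split of fragments between them is uncertain too. Acot3 was listed at 0.129 and 0.0414 FPKM, about 4 and 1 fragments, with a ratio of 0.321 whose interval ran from 0.00489 to 2.43. Acot4, a peroxisomal enzyme, had 18.0 and 15.6 FPKM, 1.15-fold lower (1.06 to 1.27).

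The other thioesterases lie elsewhere in the genome. Acot8, a peroxisomal enzyme of broad chain-length range, had 42.4 FPKM in the wild-type and 40.3 FPKM in the knockout library, a ratio of 0.951 (0.821 to 1.09). Acot12, a cytosolic hydrolase of acetyl-CoA, had 34.1 and 41.0 FPKM, 1.20-fold higher (1.10 to 1.30). It was the 1 thioesterase of the 5 measured with a log2 ratio above 0, joined by Acot8 with equal sums of FPKM, and the median of the 5 was -0.19, or -0.07 with equal sums.

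Bdh1, the mitochondrial dehydrogenase that interconverts the ketone bodies acetoacetate and beta-hydroxybutyrate, was the only member that acts on ketone bodies themselves. It had 51.0 FPKM in the wild-type and 44.0 FPKM in the knockout library, 1.16-fold lower (1.07 to 1.27), and its log2 ratio moved from -0.21 to -0.08 with equal sums.

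PPARA targets outside oxidation included the member farthest from 0 on the log2 scale. Angptl4 (chr17:33773750-33781830, minus strand), a secreted inhibitor of lipoprotein lipase, had 65.1 FPKM in the wild-type and 152 FPKM in the knockout library, 2.33-fold higher (2.2 to 2.45) from about 1909 and 4601 fragments. Pdk4, a kinase that inhibits pyruvate dehydrogenase and so spares glucose, had 44.7 and 57.0 FPKM, 1.28-fold higher (1.18 to 1.36). These were the 2 members of this role above 0. Both are known to be induced in fasting and by glucocorticoids as well as by PPARA, and the part of any of these in their values was not tested. Plin2, a coat protein of lipid droplets, had 73.2 and 53.8 FPKM, 1.36-fold lower (1.25 to 1.49). Vnn1, a pantetheinase at the cell surface, had 241 and 174 FPKM, 1.38-fold lower (1.33 to 1.45). Ucp2, a carrier of the inner mitochondrial membrane, had 102 and 91.6 FPKM, 1.11-fold lower (1.06 to 1.17), and a log2 ratio of -0.02 with equal sums. Targets of the same receptor thus lay on both sides of 0, and the median of the 5 was -0.15, or -0.02 with equal sums. Fgf21, a hormone that PPARA induces in the fasted liver, was listed at 0 in both libraries, where 3 fragments would give 0.356 and 0.345 FPKM.

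**Figure D3:**
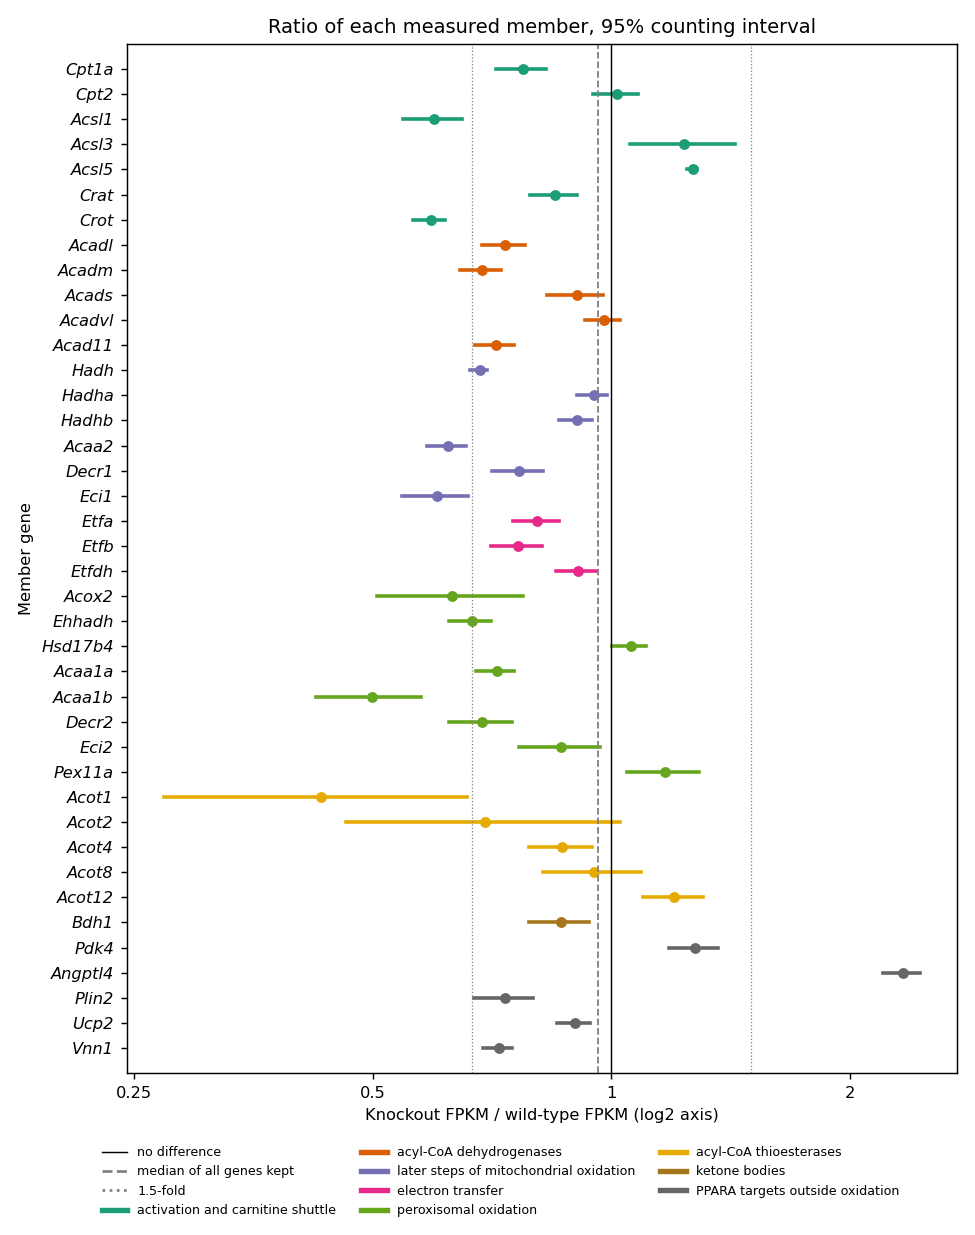
Ratio of knockout to wild-type FPKM (log2 axis) of the 40 measured members, coloured by role, with exact 95% counting intervals as bars. Angptl4 stands alone at 2.33, the intervals of 29 members lie below 1, and the widest bars belong to genes with few fragments such as Acot1 and Acot2.

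RefSeq promoter windows on GRCm38.p6, from 250 bases before to 50 after the start, were found for 36 of the 42 members, 40 windows in all. Angptl4, Vnn1, Crat, Decr1, Hsd17b4 and Acaa2 have none in the table used. The half-site AGGTCA, searched on both strands, was in 8 of the 40 windows (20%), of 7 members, and in 5340 of all 32851 windows (16.3%). The full repeat AGGTCANAGGTCA was in none of the 40 and in 13 of all (0.0396%). The repeat contains the half-site, so these counts overlap. With up to 2 mismatches the repeat was in 5 of the 40 windows (12.5%), those of Acot12, Acot4, Acox2, Etfa and Plin2, and in 3.86% of all, a search that was added after the data were seen. Acot12 alone had a match with 1 mismatch.

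The windows of Acot12 (chr13:91741271-91741570, plus strand) and Plin2 (chr4:86670010-86670309, minus strand) are shown because they hold such a match, in capitals, in 1 member that was higher and 1 that was lower. Both are read on the strand of the gene, on which the repeat appears as its reverse complement.
Acot12 promoter: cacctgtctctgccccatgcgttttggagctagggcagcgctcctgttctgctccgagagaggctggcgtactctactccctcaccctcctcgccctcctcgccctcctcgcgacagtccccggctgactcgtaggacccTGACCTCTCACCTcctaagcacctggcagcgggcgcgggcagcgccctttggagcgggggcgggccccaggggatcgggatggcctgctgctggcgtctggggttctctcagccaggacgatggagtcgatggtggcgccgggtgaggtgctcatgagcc
Plin2 promoter: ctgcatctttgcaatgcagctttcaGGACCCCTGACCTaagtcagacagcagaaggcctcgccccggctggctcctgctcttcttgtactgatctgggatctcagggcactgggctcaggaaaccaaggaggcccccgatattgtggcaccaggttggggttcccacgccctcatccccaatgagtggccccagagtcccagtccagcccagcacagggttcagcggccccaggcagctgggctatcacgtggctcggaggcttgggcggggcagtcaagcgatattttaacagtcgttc
The 5 members with a match of up to 2 mismatches included 4 with log2 ratios below 0 and 1 above. A match is a description of the letters and not a binding site.

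Genes of the same pathways outside the 42 also lay mostly below 0. Of all kept genes 56% did, or 40.7% with equal sums, and of those that reached 20 FPKM in either library 70.0%. The share of all kept genes at least 1.5-fold lower was 7.26%, or 4.90% with equal sums, and at least 1.5-fold higher 4.83%. At 20 FPKM, 9.93% were at least 1.5-fold lower. Of 20 other measured genes of mitochondrial fatty acid oxidation, 16 were below 0, with a median log2 ratio of -0.35 (-0.22 with equal sums), 7 at least 1.5-fold lower (3 with equal sums) and 2 at least 1.5-fold higher. Acsm5, a medium-chain acyl-CoA synthetase, had 5.12 FPKM in the wild-type and 1.99 FPKM in the knockout library, and the dehydrogenases Acad10 and Acad12 had 7.99 and 3.47 FPKM and 7.86 and 4.06 FPKM. Acot7, a thioesterase best known from brain, was higher, at 14.1 and 29.7 FPKM, and the most abundant gene of the list, Acot13, had 99.6 and 71.9 FPKM.

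Of 28 other measured peroxisomal genes, 24 were below 0 (18 with equal sums), with a median of -0.30 (-0.18 with equal sums), 6 at least 1.5-fold lower and none at least 1.5-fold higher. Nudt7, a hydrolase of peroxisomal CoA, had 34.5 and 11.8 FPKM, and Cat, the catalase that removes hydrogen peroxide made by peroxisomal oxidases, had 379 and 193 FPKM. Hacl1 and Amacr, which act on branched chains, had 7.53 and 3.44 FPKM and 12.4 and 6.76 FPKM. The carrier protein Scp2, the most abundant gene of the list, had 558 and 395 FPKM. Of the 7 other ketone body genes, 6 were below 0 (5 with equal sums), with a median of -0.41. Among them Oxct1, which activates acetoacetate for use, had 37.8 and 27.9 FPKM, and Slc16a1, a carrier of monocarboxylates, had 26.8 and 19.9 FPKM.

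Of 12 measured genes in a list of other reported PPAR targets, 10 were below 0 (9 with equal sums), with a median of -0.31 (-0.18 with equal sums), 3 at least 1.5-fold lower and 1 at least 1.5-fold higher. Slc25a20 and Ech1, both below 0, are also counted in the mitochondrial and the peroxisomal list above. Cyp4a10, a fatty acid omega-hydroxylase, had 5.57 FPKM in the wild-type and 1.21 FPKM in the knockout library, and Cd36, a fatty acid transporter, had 106 and 44.3 FPKM. Retsat, a retinol saturase, had 185 and 117 FPKM, and Fabp1, the fatty acid binding protein that was the most abundant gene of the list, had 7846 and 6247 FPKM. Cidec, a lipid droplet protein, was higher at 59.3 and 95.02 FPKM.

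The receptors themselves did not share 1 direction, with 6 of 12 measured receptors and partners above 0 and 6 below and a median of -0.03, or 0.10 with equal sums. Ppara had 13.8 FPKM in the wild-type and 18.5 FPKM in the knockout library, Pparg had 10.3 and 5.21 FPKM, and the partner Rxra had 44.1 and 33.2 FPKM. Hnf4a, a nuclear receptor of enterocytes, had 260 and 210 FPKM, and Esrra, a regulator of mitochondrial genes, had 169 and 131 FPKM. Ppard, a further receptor of the family, had 52.9 and 46.7 FPKM. The log2 ratios of Ppara, Pparg and Ppard were 0.40, -0.86 and -0.18. With equal sums Ppard would lie closer to no difference. The part of receptor levels in the members' values was not tested.

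Fatty acid synthesis lay mostly on the other side, with 8 of 11 measured genes above 0 and a median of 0.13, or 0.26 with equal sums. Fasn, the fatty acid synthase, had 4.75 and 8.84 FPKM, and the desaturase Scd2 had 10.95 and 17.7 FPKM. Me1, which supplies NADPH, was lower, at 20.3 and 9.69 FPKM, and Dgat2, which completes triglycerides and was the most abundant gene of the list, had 174 and 243 FPKM. Genes of the citrate cycle and of mitochondrial content had a median of -0.19, or -0.06 with equal sums, with 8 of 12 below 0 and none of the 12 at least 1.5-fold apart. In that list the most abundant gene, Mdh2, had 1422 and 1468 FPKM, and Tomm20, of the import pore, had 18.6 and 12.5 FPKM. Cytochrome c, Cycs, had 169 and 131 FPKM, and the succinate dehydrogenase subunits Sdha and Sdhb had 260 and 210 FPKM and 459 and 383 FPKM.

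**Figure D4:**
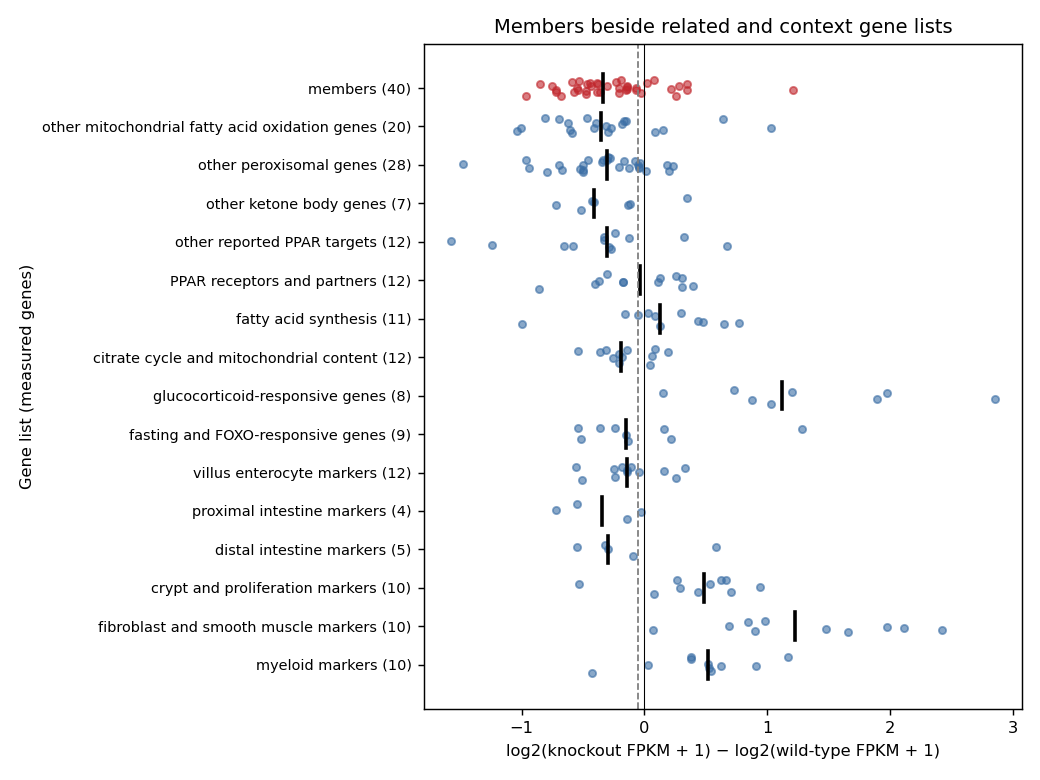
Log2 ratios of knockout to wild-type, with 1 added to each FPKM, for the measured genes of each list, with the number measured in brackets. The lists of oxidation, peroxisomes, ketone bodies and PPAR targets lie mostly below 0, while glucocorticoid-responsive genes and fibroblast and smooth muscle markers lie above it.

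Other programmes differed between the 2 libraries as well, and their part in the members' values was not tested. Of 8 measured glucocorticoid-responsive genes, 8 were above 0 and 7 were at least 1.5-fold higher, with a median of 1.12, a list drawn up with results of these libraries known. Fkbp5, a chaperone of the glucocorticoid receptor, had 3.11 FPKM in the wild-type and 28.8 FPKM in the knockout library, and the kinase Sgk1 had 217 and 503 FPKM. The clock gene Per1 had 2.61 and 13.2 FPKM, and Ddit4, an inhibitor of mTORC1, had 13.6 and 53.2 FPKM. Genes induced by fasting and FOXO factors had a median of -0.15, or -0.02 with equal sums, with 3 of 9 above 0. One of these, Pck1, the gluconeogenic enzyme, had 235 and 574 FPKM, while G6pc, Foxo3 and Txnip were lower, at 115 and 78.7 FPKM, 17.3 and 11.8 FPKM, and 253 and 196 FPKM.

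Levels of cell markers differed as well, and their part in the members' values was not tested either. Villus enterocyte markers were abundant in both libraries, with a summed level of 60924 FPKM in the wild-type and 54941 FPKM in the knockout library, 9 of 12 below 0 (7 with equal sums) and a median of -0.14, which equal sums brought to -0.0036. Of 10 crypt and proliferation markers, 9 were above 0, with a median of 0.49 and summed levels of 270.1 and 352 FPKM. Fibroblast and smooth muscle markers were above 0 in 10 of 10 measured genes, with a median of 1.23, though their summed level was only 13.1 and 48.6 FPKM. Myeloid markers were above 0 in 9 of 10, with sums of 74.3 and 96.0 FPKM, and T cell markers in 4 of 7, with sums of 376 and 394 FPKM. Proximal intestine markers were below 0 in 4 of 4 measured genes, or 3 with equal sums (sums of 825 and 736 FPKM) and distal markers in 4 of 5, or 3 with equal sums (5356 and 4315 FPKM). Among 8 fat cell markers, Plin1, Lep and Retn were at 0 in both libraries, Adipoq was at 0.200 and 0 FPKM and Fabp4 at 0 and 2.28 FPKM. Cidec and Lipe of the same list were well expressed, Lipe at 79.8 and 55.8 FPKM, and of the 3 genes measured 2 were above 0, with a median of 0.67 and summed levels of 139 and 153 FPKM. Striated muscle markers included Myl1 and Mb at 0 in both libraries, and Acta1 at 5.69 and 32.0 FPKM. Endothelial markers summed to 1.87 and 7.17 FPKM. Hepatocyte markers summed to 4.75 and 2.10 FPKM, with Fgb at 0 in both.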

How the data were processed

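Per the labels' protocols, RNA came from an RNeasy Mini extraction and TruSeq stranded mRNA libraries. The deposited values are FPKM made by the authors, 1 per gene and library. The programs named in the submitters' processing notes are Cuffnorm 2.2.1, SAMtools 0.1.19, Bowtie2 2.2.3 and TopHat2 2.0.13, with the mm10 build. Not given in the sources used here: what each program did, which annotation and strand setting it used, and how libraries were scaled. The unit has no header and was inferred from Cuffnorm and the values. Summed FPKM were 750631 (wild-type) and 683884 (knockout), and 15445 and 15700 genes were above 0.

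Genes reaching 1 FPKM in either library were kept, and 1 was added before log2. A fold rule is one of size, not of significance. The files hold FPKM only, so fragment numbers were estimated from the spacing of the lowest values. Of 602 genes below 0.1 FPKM in both libraries, 246 shared 1 ratio, 0.963, with log2 ratios equal to 3 decimals. Genes below 0.3 FPKM with 1 transcript of at least 1500 nt gave the worth of 1 fragment per kb as 0.113 FPKM for wild-type (108 genes) and 0.109 for knockout (112 genes). Only genes whose FPKM times kb lay between 0.08 and 0.16, a fixed range, were used for this. Each gene's length was the median of its GENCODE M21 transcripts on GRCm38, those linked to RefSeq where given. The procedure was tested on simulated data drawn with these same lengths and the estimated wild-type worth and worth ratio. Such data cannot check the lengths or how fragments shared between genes were assigned. The intervals, and the floor of 3 fragments, leave out all but counting error. Coding sequences and promoters were aligned with Biopython 1.88, and SciPy 1.17.1 gave intervals and correlations.

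The members, lists and comparisons were chosen with earlier results of these data known. All members are accounted for. From each other list the rule names up to 4 measured genes farthest from 0 and the most abundant one. Ppard, Cpt1b, Slc25a20 and Ech1 are named in addition. Lists of cell markers are given by counts and sums with few genes named, and 2 other genes the rule picks are not reported here. Alternatives were other pseudocounts, filters, scalings and transcript lengths.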

Additional observations from a re-analysis of the deposited data

How the results depend on the processing

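No paired analysis was possible because each genotype has 1 library, and for the same reason no library could be left out. With a pseudocount of 0.1, 1 member was at least 2-fold lower, where none was with 1. Over the planned settings the members' median log2 ratio ran from -0.20 with equal sums of FPKM to -0.34 with a pseudocount of 0.1, and the number at least 1.5-fold lower from 5 to 7. Angptl4 was the 1 member at least 1.5-fold higher in every setting run. Multiplying the knockout values by 1.06 to 1.10, to give equal sums, equal upper quartiles or a median ratio of 1, moved the median of all genes from -0.05 to between 0.03 and 0.07, left 29 members below 0 in place of 32, and put Acadvl, Hadha and Acot8 above 0. The share of all genes below 0 then ranged from 40.7% to 45.9%. With these scalings 21 to 23 counting intervals lay below 1 in place of 29. 2 alternatives were chosen after seeing the data, a level of at least 20 FPKM and the removal of Acaa1a, Acaa1b, Acot1 and Acot2, and the latter gave a median of -0.22. Over all settings run the members' median minus that of all genes ranged from -0.29 to -0.16. With a pseudocount of 5 the median of the peroxisomal members, -0.43, was no longer below that of the later mitochondrial steps, -0.45. Genes with few fragments, such as Acot1, Acot2 and Acox2, have the widest intervals, and Acot3 and Fgf21 are too low to compare.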
